A study of Homo sapiens with 4 samples.

Results

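The 40 genes described here encode proteins that build, carry cargo along or anchor the cytoskeleton of growing neurites. They were chosen by symbol from a list of doublecortins, collapsin response mediator proteins, tubulins, stathmins, microtubule-associated proteins, kinesins, neuronal intermediate filaments, growth cone membrane proteins and adhesion molecules. All 40 were found among the 19826 gene rows of the deposited table. Their RNA was measured in BE(2)C:MYCN-ORF cells in all 4 groups, a derivative of the human neuroblastoma line BE(2)C that carries a MYCN open reading frame. The groups were siMYCN with let-7a, siMYCN with the control mimic (miRCon), siCon with let-7a and siCon with miRCon, where siMYCN is an siRNA against MYCN, siCon a control siRNA and let-7a a microRNA mimic. PolyA RNA was sequenced 48 hours after transfection, with 1 library in each group, so a replicate check is lacking for every difference.

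Neurites are built on bundles of microtubules, polymers of alpha- and beta-tubulin that are stabilised by doublecortin and the microtubule-associated proteins and taken apart by stathmins. Neurofilaments and related intermediate filaments fill the axon, kinesins carry cargo along microtubules, and GAP43, BASP1 and MARCKS sit under the membrane of the growth cone. Neuroblastoma arises from sympathetic precursors and keeps much of this gene programme, and MYCN, a transcription factor that binds DNA with MAX, drives many of these tumours. MicroRNAs of the let-7 family lower mRNAs that hold a match to their seed, usually in the 3' UTR.

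Values are the back-transformed deposited logs, exp(x) - 1, which summed to between 855811 and 862049 per library and are called TPM-like. Depth behind them is unknown. Members summed to 6151 TPM-like units in siMYCN with let-7a, 5860 in siMYCN with miRCon, 5864 in siCon with let-7a and 5809 in siCon with miRCon. MYCN, the siRNA target, stood at 1197 with let-7a and 1238 with miRCon in siMYCN cells. In siCon cells it stood at 1433 and 1449, in the same order of mimics. The log2 fold change of -0.24 ± 0.047 (SE) did not pass (adjusted p = 0.0584 in limma). The MYCN row may also hold RNA of the introduced open reading frame. How far RNA of the cells' own MYCN gene fell was therefore not measured. LIN28B, an established let-7 target, stood at 55.5 with let-7a against 119 with miRCon in siMYCN cells, and at 96.5 with let-7a against 157 with miRCon in siCon cells. Its let-7a effect of -0.89 ± 0.11 (SE) did not pass in limma either. Sympathoadrenal markers were present in all 4 libraries (10 of 10 listed, among them PHOX2A at 566 to 644), and the 4 blood markers were below 1. The sympathoadrenal marker ISL1 stood at 65.1 with let-7a and 88.3 with miRCon in siMYCN cells, against 116 with let-7a and 128 with miRCon in siCon cells, and fell with siMYCN (-0.68 ± 0.10, SE; adjusted p = 0.0434 in limma). Mitochondrial transcripts took 29.3% and 28.4% of the summed values in siMYCN cells with let-7a and miRCon, against 32.1% and 31.6% in siCon cells with let-7a and miRCon. The part of either in the members' values was not tested. Of 6 fibroblast markers 5 were above 10 in every library, and their sum lay between 243 and 293. Fewer cells of a type and less RNA per cell cannot be told apart in such bulk samples.

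Sequence decides how well these genes can be told apart by short reads. In 32 of the 40 members at most 10% of the 31-base words of the transcript with the longest coding sequence also occur in transcripts of another gene of GENCODE release 29. The share was 90.6% for TUBB3, nearly all of it in an annotated gene that overlaps it, 72.2% for TUBA1B, 70.0% for TUBB2A, 53.6% for TUBB2B and 51.6% for TUBA1A, so the levels of these 5 tubulins depend on how reads were divided. TUBB4A (14.9%), NEFH (13.1%) and TUBA4A (11.9%) were the other 3 above 10%. Exons of 19 members overlap an exon of another annotated gene, most often on the opposite strand, and a strand-specific library is not stated in the labels.

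The members covered a wide range of levels. TUBA1B, the main alpha-tubulin, averaged 961 TPM-like units over the 4 libraries, NEFM, the medium neurofilament, 651, MARCKS, an actin-binding substrate of protein kinase C, 479, and STMN2, a growth cone stathmin, 336. At the other end STMN4, a further stathmin, averaged 0.185 and was listed at 0 in siMYCN with miRCon, MAPT, the tau gene, averaged 0.326, KIF5C, a neuronal kinesin heavy chain, 0.581, TAGLN3, a neuronal calponin relative, 1.79, and DCLK1, a doublecortin-like kinase, 4.69. These 5 lay under a mean of 5, the minimum for testing, and the other 35 were tested.

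**Figure D1:**
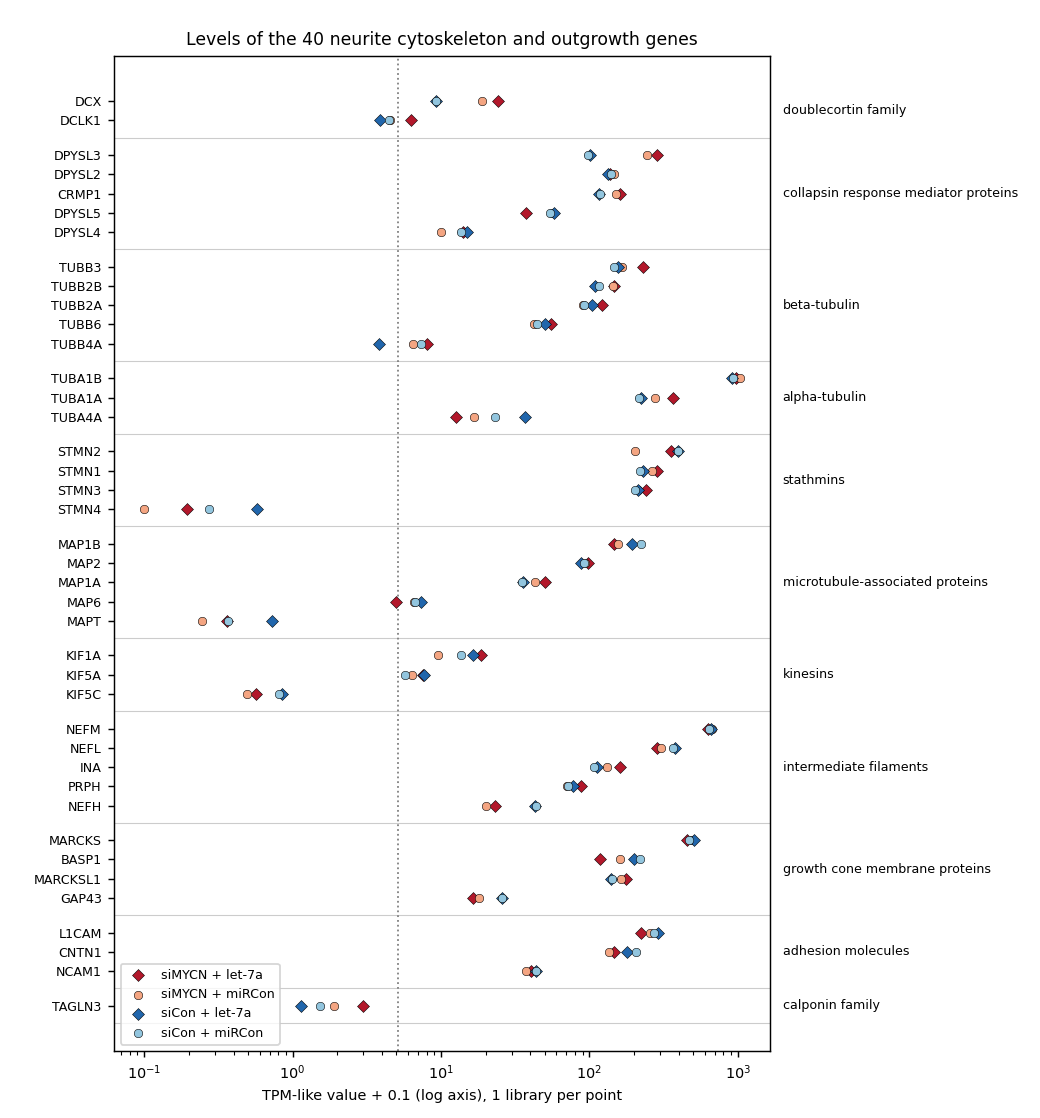
Levels of the 40 members in each of the 4 libraries, as TPM-like value + 0.1 on a log axis, grouped by role; red and orange are siMYCN cells, blue and light blue siCon cells, diamonds let-7a and circles miRCon. The dotted line marks a value of 5, and among the 35 tested members only DCX, DPYSL3 and NEFH have their siMYCN points at least 1.5-fold away from the siCon points of the same mimic in both pairs.

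To see whether the siRNA against MYCN moved these genes, siMYCN was set against siCon in each mimic, in 2 pairs of libraries that share none. DPYSL3 and DCX rose, NEFH, BASP1 and MAP1B fell, and the other 30 tested members did not pass. The test was an additive limma-trend fit on log2(value + 1) over all 9324 tested genes, in which the departure from additivity stands in for error, with Benjamini-Hochberg adjustment. It called 2 of 35 members higher, where 2.07% of all tested genes were called higher, and 3 of 35 lower, where 1.36% were called lower. The calls rest on the variance model and the filter: with no filter, or without limma's variance trend, 0 members and 0 genes were called, while 2452 genes with no filter and 2221 without the trend were at an unadjusted p under 0.05. After median-ratio rescaling of the libraries the calls over all genes were 334 higher and 410 lower, against 193 and 127 as deposited, and 3 and 7 members were called. By size alone, a shift of 1.5-fold or more with the same sign in both pairs, 2 members were higher (DPYSL3 and DCX; 2.85% of all tested genes) and 1 was lower (NEFH; 1.61% of all tested genes).

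DPYSL3 is a collapsin response mediator protein, a family of cytosolic tubulin-binding proteins that relay semaphorin signals. It stood at 287 with let-7a and 246 with miRCon in siMYCN cells, against 101 with let-7a and 97.2 with miRCon in siCon cells. The siMYCN level was 2.85-fold that of siCon with let-7a and 2.54-fold with miRCon (log2 fold change 1.42 ± 0.078, SE, over both pairs; adjusted p = 0.0174 in limma). The gene lies at chr5:147390811-147510056 of GRCh38 on the minus strand.

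DCX, the doublecortin that binds and stabilises microtubules in migrating neurons, stood at 24.2 with let-7a and 18.8 with miRCon in siMYCN cells, against 9.09 with let-7a and 9.22 with miRCon in siCon cells. The log2 fold changes were 1.32 with let-7a and 0.95 with miRCon (1.14 ± 0.17, SE, over both pairs; adjusted p = 0.0422 in limma). DCX lies at chrX:111293779-111412429 on the minus strand.

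Among the proteins that shape filament and membrane, NEFH, the heavy neurofilament subunit of thick axons, stood at 22.9 with let-7a and 20.1 with miRCon in siMYCN cells, against 42.7 with let-7a and 43.6 with miRCon in siCon cells. It fell by 0.87 with let-7a and by 1.08 with miRCon on the log2 scale (-0.97 ± 0.12, SE; adjusted p = 0.0343 in limma). NEFH lies at chr22:29480230-29491390 on the plus strand.

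BASP1, a myristoylated growth cone protein, stood at 118 with let-7a and 160 with miRCon in siMYCN cells, against 200.3 with let-7a and 221 with miRCon in siCon cells. Its log2 fold changes were -0.76 with let-7a and -0.46 with miRCon (-0.61 ± 0.094, SE; adjusted p = 0.0436 in limma). It lies at chr5:17065598-17276843 on the plus strand, and BASP1 was also the tested member with the lowest let-7a effect.

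MAP1B, a large microtubule-associated protein of early axons, stood at 145 with let-7a and 155 with miRCon in siMYCN cells, against 192 with let-7a and 223 with miRCon in siCon cells. Its log2 fold changes were -0.40 with let-7a and -0.52 with miRCon (-0.46 ± 0.072, SE; adjusted p = 0.0446 in limma). It lies at chr5:72107234-72209570 on the plus strand.

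**Figure D2:**
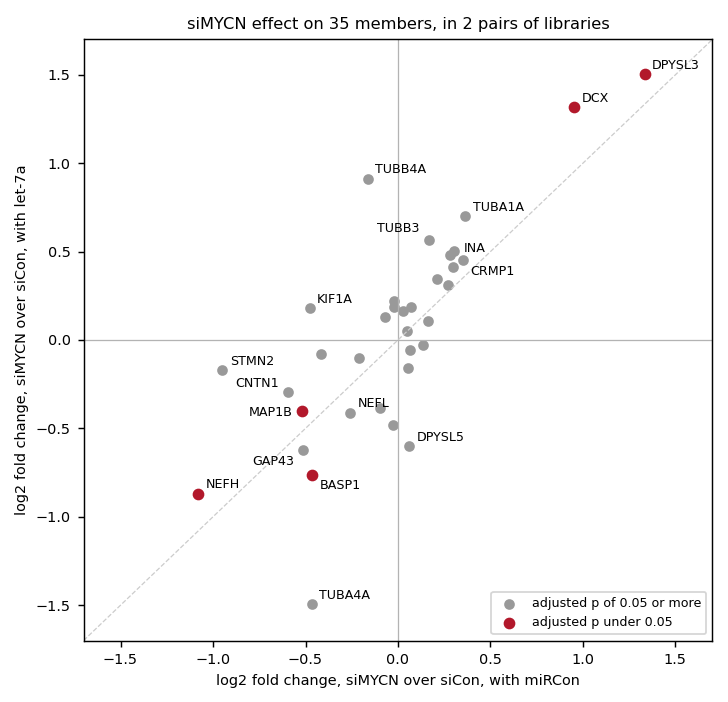
Log2 fold change of siMYCN over siCon, on log2(value + 1), for the 35 tested members, with miRCon on the x axis and with let-7a on the y axis; each point is 1 gene and the dashed line marks equal effects. DPYSL3 and DCX lie far up the diagonal, NEFH, BASP1 and MAP1B down it, and TUBA4A, STMN2 and TUBB4A away from it.

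The remaining members were distributed to both sides of 0. Over the 35 tested, 14 were higher with siMYCN in both pairs, 12 lower in both and 9 mixed; among all tested genes 43.2% were higher in both and 27.4% lower in both. The median log2 fold change was 0.051 over members and 0.056 over all tested genes. The median size regardless of direction was 0.29 over members and 0.19 over all tested genes. At an unadjusted p under 0.05 in limma were 20 of the 35 members (57.1%), 11 higher and 9 lower, against 26.4% of all tested genes. With a mean of at least 20 the shares were 65.5% of members and 30.6% of genes. Across the 35 members the siMYCN effects with let-7a and with miRCon were correlated at 0.77 (Pearson's r) and 0.77 (Spearman's rho). Across all tested genes the values were 0.53 and 0.53. Agreement was closer at higher levels: with a mean of at least 20 it was 0.65 and 0.61 across all genes, and 0.82 and 0.86 across 29 members. These are descriptions, since genes of 1 library share its scaling.

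Of the other collapsin response mediator proteins, CRMP1 stood at 159.9 with let-7a and 150.3 with miRCon in siMYCN cells, against 117 with let-7a and 118 with miRCon in siCon cells, and came close to the threshold (log2 fold change 0.40 ± 0.075, SE; adjusted p = 0.0575 in limma). DPYSL2, the family's ubiquitous neuronal member, lay between 133 and 146 in all 4 libraries. DPYSL5 was low in 1 library, with 37.5 in siMYCN with let-7a against 56.3 in siMYCN with miRCon, 57.4 in siCon with let-7a and 54.0 in siCon with miRCon. DPYSL4 lay between 9.87 and 14.9. The family's make-up restates these levels, so a member of steady level such as DPYSL2 takes a smaller share of a larger sum. DPYSL3 took 45.1% and 40.5% of the summed family level in siMYCN cells with let-7a and miRCon, against 23.8% and 23.0% in siCon cells with let-7a and miRCon. DPYSL2 took 21.7% with let-7a and 23.96% with miRCon in siMYCN cells, against 31.6% and 33.3% in siCon cells, in the same order of mimics. Levels are treated here as per transcript length, which the labels do not state.

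Tubulins gave no call. TUBA1A, the alpha-tubulin of young neurons, was nearest, at 364 with let-7a and 277 with miRCon in siMYCN cells against 224 with let-7a and 215 with miRCon in siCon cells (0.53 ± 0.095, SE; adjusted p = 0.052 in limma). TUBB3, the neuronal beta-tubulin, stood at 231 with let-7a and 166 with miRCon in siMYCN cells, against 155 with let-7a and 147 with miRCon in siCon cells, so that siMYCN with let-7a stood apart from the other 3. TUBB2B stood at 145 with let-7a and 144 with miRCon in siMYCN cells, against 109 with let-7a and 117 with miRCon in siCon cells (adjusted p = 0.0673 in limma). TUBB2A and TUBB2B share most of their words, so they were also summed. Such a sum still depends on reads shared with genes outside it and, where transcript lengths differ, on how reads were divided. It came to 267 with let-7a and 234 with miRCon in siMYCN cells, against 213 with let-7a and 208 with miRCon in siCon cells. Likewise TUBA1A, TUBA1B and TUBA1C summed to 1346 with let-7a and 1311 with miRCon in siMYCN cells, against 1133 with let-7a and 1140 with miRCon in siCon cells. These sums had log2 fold changes for siMYCN of 0.32 with let-7a and 0.17 with miRCon for the beta pair, and 0.25 with let-7a and 0.20 with miRCon for the alpha trio. TUBB6, a broadly expressed beta-tubulin, lay between 42.1 and 54.6, and TUBA1B between 908 and 1033.

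TUBA4A, a further alpha-tubulin, stood at 12.5 with let-7a and 16.5 with miRCon in siMYCN cells, against 37.0 with let-7a and 23.2 with miRCon in siCon cells. It was lower with siMYCN by 1.49 with let-7a and by 0.47 with miRCon on the log2 scale, and the average of -0.98 ± 0.26 (SE) did not pass (adjusted p = 0.0921 in limma).

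Stathmins, which bind tubulin dimers and promote microtubule disassembly, differed in direction. STMN1 stood at 284 with let-7a and 266 with miRCon in siMYCN cells, against 229 with let-7a and 220.5 with miRCon in siCon cells (0.29 ± 0.063, SE; adjusted p = 0.0677 in limma). STMN2 stood at 352 with let-7a and 203 with miRCon in siMYCN cells, against 397 with let-7a and 393 with miRCon in siCon cells. The low STMN2 value belongs to a single library, siMYCN with miRCon, and the siMYCN effect did not pass (-0.56 ± 0.18, SE; adjusted p = 0.129 in limma). STMN3 lay between 202 and 242.

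The intermediate filament genes also differed among themselves. NEFL, the light neurofilament, stood at 284 with let-7a and 304 with miRCon in siMYCN cells, against 377 with let-7a and 364 with miRCon in siCon cells (-0.33 ± 0.067, SE; adjusted p = 0.0613 in limma). INA, or internexin alpha, was the higher one in siMYCN cells, at 161 with let-7a and 132 with miRCon in siMYCN cells, against 113 with let-7a and 107 with miRCon in siCon cells (0.41 ± 0.085, SE; adjusted p = 0.0641 in limma). NEFM, at 631 to 672, and PRPH, the peripherin of sympathetic neurons, at 71.1 to 87.6, stayed within narrow ranges. The 5 genes summed to 1186 and 1200.0 in siMYCN cells with let-7a and miRCon, against 1266 and 1229 in siCon cells with let-7a and miRCon. NEFH contributed 1.93% and 1.68% of that sum in siMYCN cells, against 3.37% and 3.55% in siCon cells, in the same order.

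**Figure D3:**
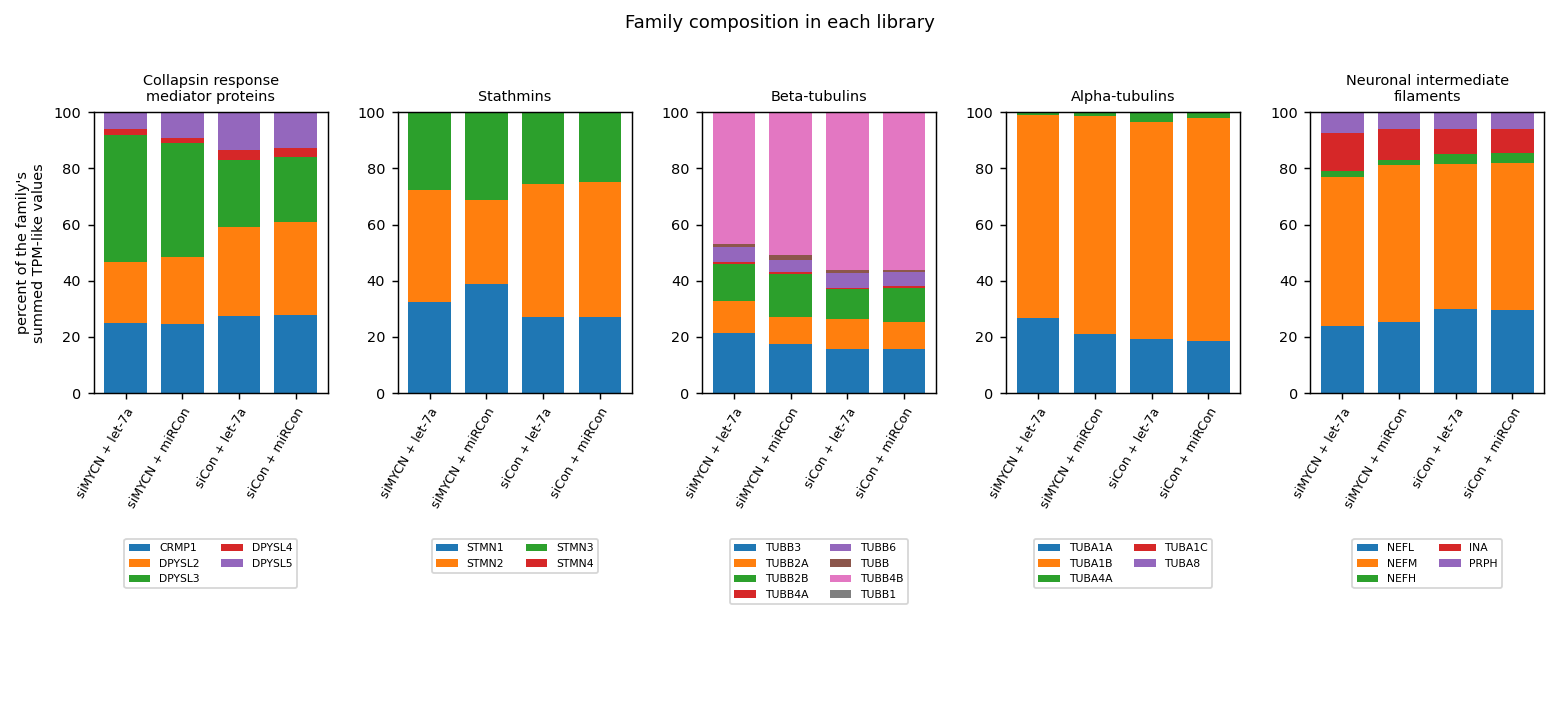
Composition of 5 gene families in each library, as percent of the family's summed TPM-like values; bars run from siMYCN with let-7a on the left to siCon with miRCon on the right, 1 library each, so there are no error bars. DPYSL3 fills 45.1% and 40.5% of its family in siMYCN cells against 23.8% and 23.0% in siCon cells, and TUBB4B, which is no member, fills 46.8% to 56.2% of the beta-tubulins.

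The other structural and membrane genes gave values without a call. CNTN1, a contactin of the axonal surface, stood at 147 with let-7a and 136 with miRCon in siMYCN cells, against 180.2 with let-7a and 205 with miRCon in siCon cells (-0.44 ± 0.094, SE; adjusted p = 0.0654 in limma). GAP43, the growth-associated protein of growth cones, stood at 16.3 with let-7a and 17.8 with miRCon in siMYCN cells, against 25.6 with let-7a and 25.9 with miRCon in siCon cells (-0.57 ± 0.13, SE; adjusted p = 0.0722 in limma). Both genes were lower in both pairs, as were 27.4% of all tested genes. L1CAM and NCAM1, adhesion molecules of axons, had log2 fold changes of -0.24 and -0.16. All 3 adhesion members were lower in both pairs, as were 27.4% of all tested genes. The 5 other adhesion molecules tested in the wider list below had a median of 0.27, with 1 called higher and 1 lower. MARCKSL1, a MARCKS relative, had 0.28 and MARCKS -0.052. MAP1A, a microtubule-associated protein of mature neurons, had 0.38 (adjusted p = 0.109 in limma), while MAP2, of dendrites, had 0.093 and MAP6, which protects microtubules from cold, -0.26. The kinesins KIF1A and KIF5A had -0.15 and 0.054.

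A wider list held 124 other cytoskeleton and axon genes. Of its 97 tested genes 6 were called higher (6.19%, against 2.07% of all tested genes) and 2 lower (2.06%, against 1.36%) with siMYCN. The median log2 fold change was 0.080 over the list and 0.056 over all tested genes. CLIP3, a relative of microtubule plus-end proteins, rose to 31.7 with let-7a and 25.9 with miRCon in siMYCN cells, against 15.6 with let-7a and 13.1 with miRCon in siCon cells (0.95 ± 0.13, SE; adjusted p = 0.0364 in limma). CLIP2 rose by 0.92 ± 0.15 (SE; adjusted p = 0.0469 in limma). The dynein adaptor BICD1 (0.69), the adhesion molecule ALCAM (0.63), the Arp2/3 subunit ARPC5 (0.55) and the actin bundler FSCN1 (0.48) also rose, at adjusted p values of 0.0301 to 0.0487 in limma. CNTNAP2, a neurexin-like axonal protein, fell to 6.44 with let-7a and 14.6 with miRCon in siMYCN cells, against 33.1 with let-7a and 32.1 with miRCon in siCon cells (-1.64 ± 0.28, SE; adjusted p = 0.0487 in limma). SYNM, an intermediate filament protein, fell by 0.87 (adjusted p = 0.0469 in limma). CAMSAP3, a microtubule minus-end protein, was lower by 1.17 with let-7a and by 0.67 with miRCon on the log2 scale without passing (adjusted p = 0.0809 in limma).

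The let-7a mimic was next set against miRCon, in siMYCN cells and in siCon cells, as the guide strand of let-7a can pair with seed matches in 3' UTRs. The mature let-7a sequence from RefSeq (GRCh38.p14) is shown first, with its seed in capitals, and below it are 8 of the 9 matches found (that of NEFM is not shown) in the members' longest annotated 3' UTRs (GENCODE release 29, GRCh38), with the match in capitals and flanking bases in lower case, on the gene's strand.
let-7a-5p: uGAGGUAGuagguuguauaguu
DCX at chrX:111298918-111298945: tctcttgcttgttcCTACCTCctgattt
DCX at chrX:111296181-111296208: ggctttttgccgctCTACCTCttgtgta
DPYSL3 at chr5:147392087-147392114: agatctgaagcataTACCTCAttgacta
MARCKSL1 at chr1:32334318-32334345: tcctgtccctggccCTACCTCcttccct
TUBB4A at chr19:6494694-6494721: ctgagccccagctcCTACCTCtgacccc
TUBB4A at chr19:6494504-6494531: cacagcgtcagctcCTACCTCtgacccc
MAP2 at chr2:209733219-209733246: aaccagaaattggaTACCTCAtaatgat
MAP6 at chr11:75604366-75604393: gtctcacagttcctTACCTCAaagtccc

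The full 8-base site CTACCTCA occurred in 0 of the 40 members, against 4.42% of the 8914 tested genes with a 3' UTR. CTACCTC, pairing with bases 2 to 8, was the best site in 3 members (DCX, MARCKSL1 and TUBB4A; 7.12% of tested genes), and TACCTCA was the best in 4 (DPYSL3, MAP2, MAP6 and NEFM; 7.48%). The other 33 members held none of these words, read on the transcript strand only. A match is a description of the sequence and not a shown site of action. When the transcript with the longest reading frame was used instead, MAP6 lost its match, leaving 6 members.

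The 7 members with a match had let-7a effects of both signs. DCX stood at 24.2 with let-7a against 18.8 with miRCon in siMYCN cells, and at 9.09 with let-7a against 9.22 with miRCon in siCon cells. DPYSL3 stood at 287 with let-7a against 246 with miRCon in siMYCN cells, and at 101 with let-7a against 97.2 with miRCon in siCon cells. Neither gene was lower with let-7a by more than 0.018 on the log2 scale in either pair. TUBB4A, a beta-tubulin of low level here, stood at 7.90 with let-7a against 6.39 with miRCon in siMYCN cells, and at 3.73 with let-7a against 7.26 with miRCon in siCon cells, opposite directions. MAP6 was lower with let-7a in siMYCN cells, at 4.86 with let-7a against 6.45 with miRCon, and stood at 7.19 with let-7a against 6.59 with miRCon in siCon cells. The median let-7a effect was 0.048 for the 3 members with CTACCTC and -0.016 for the 4 with TACCTCA, against -0.062 and -0.059 over all tested genes with those sites.

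Limma called 0 members for let-7a, as it called 0 of all 9324 tested genes in either direction (0% higher and 0% lower), with 697 genes and 4 of the 35 members at an unadjusted p under 0.05. LIN28B, with log2 let-7a effects of -1.08 in siMYCN cells and -0.70 in siCon cells, was not called either. The lack of a call therefore does not show that let-7a left a member unchanged. No member passed 1.5-fold with 1 sign in both pairs (0 higher and 0 lower), where 0.204% of all tested genes were higher and 0.257% lower by that rule. The smallest adjusted p over members was 0.663 in limma. Of the 35 members 15 were higher with let-7a in both pairs (42.9%), 5 lower in both (14.3%) and 15 mixed; over all tested genes 22.6% were higher in both and 33.5% lower in both. The median let-7a effect was 0.059 over members and -0.031 over all tested genes. Across the 35 members the correlation of the 2 let-7a effects was 0.0093 (Pearson's r) or 0.21 (Spearman's rho), against 0.11 and 0.13 over all tested genes, as a description.

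The highest single-pair let-7a effects were those of KIF1A and STMN2 in siMYCN cells. KIF1A, the kinesin that carries synaptic vesicle precursors, stood at 18.6 with let-7a against 9.40 with miRCon in siMYCN cells, and at 16.3 with let-7a against 13.5 with miRCon in siCon cells (0.58 ± 0.21, SE, over both pairs; adjusted p = 0.663 in limma). STMN2 stood at 352 with let-7a against 203 with miRCon in siMYCN cells, and at 397 with let-7a against 393 with miRCon in siCon cells. TUBB3 had log2 fold changes of 0.48 in siMYCN cells and 0.077 in siCon cells, and TUBA1A of 0.39 and 0.057. All of these were higher in both pairs, in siCon cells by 0.26 for KIF1A and by 0.014 for STMN2 on the log2 scale. KIF1A and STMN2 were lowest in siMYCN with miRCon, and KIF1A, TUBB3 and TUBA1A were highest in siMYCN with let-7a. The chromaffin granule marker CHGB was also highest in siMYCN with let-7a, at 2275 with let-7a against 633 with miRCon in siMYCN cells, and at 557 with let-7a against 438 with miRCon in siCon cells; its part in these values was not tested.

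TUBB2A stood at 122 with let-7a against 90.0 with miRCon in siMYCN cells, and at 104 with let-7a against 91.5 with miRCon in siCon cells (0.31 ± 0.094, SE; adjusted p = 0.663 in limma). TUBB6 had log2 fold changes of 0.37 in siMYCN cells and 0.17 in siCon cells, and the kinesin KIF5A of 0.21 and 0.38. BASP1 was at the low end, with 118 with let-7a against 160 with miRCon in siMYCN cells and 200.3 with let-7a against 221 with miRCon in siCon cells (-0.29 ± 0.094, SE; adjusted p = 0.663 in limma). MAP1B, GAP43, DPYSL2 and TUBA1B were also lower in both pairs, with averages of -0.15, -0.070, -0.075 and -0.050. In the wider list of 97 tested cytoskeleton genes 0 were called and 0 reached 1.5-fold in both pairs, and the median was -0.015.

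**Figure D4:**
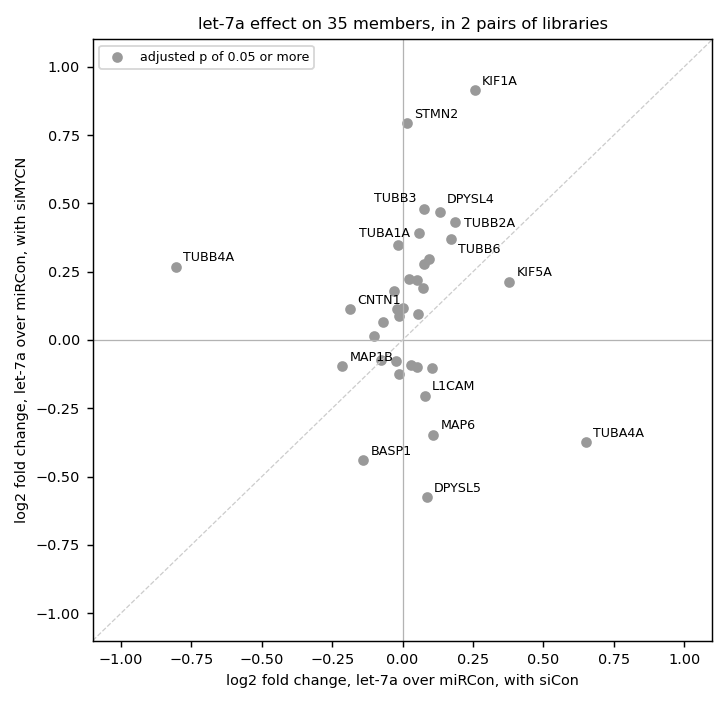
Log2 fold change of let-7a over miRCon, on log2(value + 1), for the 35 tested members, with siCon on the x axis and with siMYCN on the y axis; each point is 1 gene and the dashed line marks equal effects. KIF1A and STMN2 lie high on the y axis at x values of 0.26 and 0.014, and TUBB4A and TUBA4A lie in opposite corners.

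The difference between the 2 let-7a effects has no test here, since no residual is left, and was described at 2-fold. It reached 2-fold for 2 of the 35 members, TUBB4A and TUBA4A, where 2.39% of all tested genes did so. TUBA4A stood at 12.5 with let-7a against 16.5 with miRCon in siMYCN cells, and at 37.0 with let-7a against 23.2 with miRCon in siCon cells. Next in size came STMN2 at 0.78, DPYSL5 at -0.66 and KIF1A at 0.66. Low genes spread more: of genes with a mean of at least 20, 0.511% differed 2-fold.

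Both agents together against neither, siMYCN with let-7a against siCon with miRCon, is a single pair of libraries with no test that shares them with the comparisons above. Log2 differences were 1.55 for DPYSL3, 1.30 for DCX, 0.76 for TUBA1A and 0.64 for TUBB3, and -0.90 for BASP1, -0.90 for NEFH, -0.84 for TUBA4A and -0.64 for GAP43.

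MYCN with MAX binds E-boxes such as CACGTG, and this word was looked up in the RefSeq promoter windows of 300 bases (250 before and 50 after a gene's start, GRCh38.p14). CACGTG is its own reverse complement, so both strands were read at once. Of the 40 members 30 had a window, and 3 of these 30 (10.0%) held the word, against 13.3% of 7256 tested genes with a window. The 3 are shown on the gene's strand with the word in capitals, because none of the called members with a window (DPYSL3, DCX, BASP1 and MAP1B) held it.
STMN1 at chr1:25906444-25906533: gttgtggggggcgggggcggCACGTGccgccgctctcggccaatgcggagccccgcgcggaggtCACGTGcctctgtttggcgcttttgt
CRMP1 at chr4:5890233-5890278: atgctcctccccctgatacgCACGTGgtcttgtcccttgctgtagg
TUBB4A at chr19:6502463-6502508: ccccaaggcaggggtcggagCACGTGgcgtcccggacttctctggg
The siMYCN effects of these 3 genes were 0.29 for STMN1, 0.40 for CRMP1 and 0.38 for TUBB4A, none of which passed. STMN1 and CRMP1 were higher in both pairs, while TUBB4A had 0.91 with let-7a and -0.16 with miRCon. No match says only that these letters are not in this window.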

How the data were processed

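RNA from 4 libraries was compared, 1 per group, with groups taken from the sample labels. The deposited table holds natural log values per gene and library; the base was settled from the values, since exp(x) - 1 gave totals more even across libraries than base 2 did. The submitters' processing notes list HISAT 0.1.6, Salmon 0.3.2 and GRCh38 without roles; annotation, filters and the log step: not given in the sources used here. Rows for vector sequences (11) were set apart, and 28 rows carried names turned into dates. Back-transformed values were tested as log2(value + 1) in genes with a mean of at least 5 by limma-trend (limma 3.58.1, R 4.3.3), with an siRNA term and a mimic term. Its 1 residual degree of freedom is joined by 4.30 prior degrees borrowed from other genes, so p-values assume that effects add. An exact permutation test of 2 libraries against 2 cannot go below p = 0.333 and was not used. The p-values rest on the departure from additivity and on variance borrowed from other genes. With 1 library per group they measure no spread between replicates. GENCODE release 29 supplied 3' UTRs and coordinates, and RefSeq tables the let-7a sequence and promoters; all 40 members matched GENCODE by symbol and 30 had a promoter. The fit was first tested on simulated additive data, with a let-7a effect given to 200 of 9324 genes. At an adjusted p under 0.05 it called 65.7% of 1.5-fold, 91% of 2-fold and 100% of 4-fold changes. It also made 21 false calls among the unchanged genes. The simulated noise was drawn from the fitted variances, so these shares need not hold in the deposited data. Members, lists and rules were chosen with earlier results of these data known. The text names all 40 members, MYCN and LIN28B, up to 5 higher and 5 lower genes per treatment from the wider list by the smaller of the 2 pairs' effects, and FSCN1, TUBB4B, TUBA1C and the markers PHOX2A, ISL1 and CHGB, chosen after their values were seen. Alternatives tried were a pseudocount of 0.1 or 5, leaving out the filter, raising it to 20, median-ratio rescaling, limma without a trend, robust variance, other fold sizes, each pair alone and another choice of 3' UTR. Python 3.11.15, pandas 2.3.3 and Matplotlib 3.10.9 were used.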

Additional observations from a re-analysis of the deposited data

Results flagged for a closer look

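The let-7a effect ran in opposite directions in the 2 siRNA states, at least 2-fold apart, for a pair of tubulins; with 1 library per group this difference was not tested. For TUBB4A the log2 effect was 0.27 with siMYCN and -0.80 with siCon, a difference of 1.07, at a mean level of 6.32 TPM-like units. For TUBA4A it was -0.37 with siMYCN and 0.65 with siCon, a difference of -1.03, at a mean level of 22.3. Exons of both genes overlap exons of other annotated genes on the opposite strand, whose part in these values was not tested.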

How the results depend on the processing

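Without an expression filter and without limma's trend, 0 genes and 0 members were called higher or lower for siMYCN. At a mean of at least 20, 310 genes were called higher and 196 lower, against 193 and 127, and members past 1.5-fold higher numbered 1, since DCX lies below that mean. With median-ratio rescaling 334 genes were called higher and 410 lower, so the split of directions depended on scaling. Among members it called 3 higher and 7 lower; TUBA1A joined the higher ones, CNTN1, GAP43, NEFL and TUBA4A the lower ones, and the members' median siMYCN effect became -0.012. Rescaling turned the sign of the siMYCN effects on DPYSL2 (-0.012), TUBB6 (-0.032), NEFM (-0.059) and KIF5A (-0.0016), and of the let-7a effects on NEFL (0.0025) and MAP2 (0.024), none of them called. At a mean of at least 20, CRMP1 and TUBA1A were also called higher and NEFL lower. In both siMYCN pairs, 4 members were higher (10.7% of all tested genes) and 5 lower (5.79%) by at least 0.32 on the log2 scale, and 1 higher (0.386%) and 0 lower (28 of 9324 genes) at 2-fold. In siMYCN cells alone the median let-7a effect was 0.11. The cause of these shifts was not tested. DPYSL3, NEFH, BASP1 and MAP1B remained called under both pseudocounts, robust variance, rescaling and the higher filter, and DCX under all of these but the higher filter. Rescaling moved 2 of 160 member levels by more than their SD over the 4 libraries. Depth is unknown, so counting error could not be given. With 1 library per group, no replicates could be paired between groups. The siRNA was compared within each mimic, and the mimic within each siRNA.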
